A study of Mus musculus with 24 samples.

Results

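The Hox gene clusters, the 4 groups of homeobox genes HoxA, HoxB, HoxC and HoxD, were examined in reduced representation bisulfite sequencing (RRBS) data of the mouse dentate gyrus. All cytosines of the table that lay inside or within 2000 bases of a protein-coding gene named Hoxa, Hoxb, Hoxc or Hoxd with a number in the GENCODE M21 annotation (mm10) were taken, without regard to their methylation. This gave 2467 of 762182 cytosines at 39 of 39 annotated Hox genes, of which 2466 lay in a CpG dinucleotide. These cytosines are called CpGs below, so a CpG measured on both strands is counted on each. In the sequences shown, CpGs are counted as sites. The remaining cytosine, at chr2:74691038 on the minus strand, was outside the CpG context and had a value of 0 in each mouse that was measured there. HoxA on chromosome 6 held 700 of the CpGs, HoxB on chromosome 11 held 565, HoxC on chromosome 15 held 514 and HoxD on chromosome 2 held 687.

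RRBS sequences bisulfite-treated restriction fragments that are rich in CpGs, here from micro-dissected dentate gyrus, the hippocampal subregion in which new neurons are born in adulthood. The mice were females of the inbred strain C57BL/6JRj, and the labels name no allele or agent besides the housing. Young STD mice (n = 5) were 1.5 months old and came from standard cages (STD), Aged STD mice (n = 7) were kept in standard cages until 14 months of age, and Aged ENR mice (n = 7) reached 14 months in environmental enrichment (ENR), a large cage with regularly rearranged toys and tunnels. The labels also described Young ENR mice, which were not analysed here. Age and enrichment were compared through Aged STD against Young STD, Aged ENR against Aged STD and Aged ENR against Young STD. The 3 comparisons share mice, so their results are not independent of each other.

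Hox genes encode transcription factors that tell cells of the embryo where they lie along the head-to-tail axis. The genes of a cluster are ordered along the chromosome as they are used along the body, with paralogue groups of low number acting towards the hindbrain and those of high number towards the tail and the limbs. The forebrain, to which the dentate gyrus belongs, develops largely without Hox activity. Inactive Hox clusters are covered by Polycomb complexes, and their dense CpG islands are usually free of DNA methylation. Gains of methylation at such Polycomb-bound islands are a known feature of aging in many tissues. Dissected tissue mixes neurons, glia and vessel cells, so a different mix of cells and a different methylation within cells cannot be told apart here.

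Each mouse had a value at 1495 to 2365 Hox CpGs, and for 380 Hox CpGs all 19 mice had one. Read depth was unknown, so no counting interval is given. Both strands of a CpG are read from separate molecules, and at 348 Hox CpGs measured on both strands the SD of the difference between them within a mouse was 7.93 to 17.1 percentage points. Libraries also differed in which CpGs they measured. The mean Young STD methylation of the CpGs that a mouse had values for, over all CpGs of the table, was 30.6% to 32.3% in the Young STD mice. This composition index lay more than 3.5 points outside that range in 6 aged mice, at 19.5% to 20.8% in Aged STD replicates 3, 4 and 6, at 23.4% in Aged ENR replicate 4, at 37.98% in Aged STD replicate 5 and at 36.2% in Aged ENR replicate 6. Values without these libraries are also given for the means over Hox CpGs and over each cluster, for promoter, intergenic and low-methylation Hox CpGs and for the counts of Hox genes above 0.

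Hox CpGs were almost free of methylation in young mice. In Young STD mice, 91.4% of the Hox CpGs had a mean methylation under 10%, 8.52% had between 10% and 50%, and 0.122%, or 3 CpGs, were over 50%. Over all CpGs of the table these shares were 56.1%, 13.9% and 30.04%. The mean over Hox CpGs was 3.01% in Young STD, 3.45% in Aged STD and 3.61% in Aged ENR, against 30.1%, 28.2% and 29.1% over all CpGs. The difference was largest outside promoters. Promoter CpGs, those within 1000 bases of any annotated start, had a Young STD mean of 2.57% at Hox genes and 7.95% over the table. Exonic CpGs had 3.72% at Hox genes and 46.9% over the table, intronic CpGs 3.94% and 53.9%, and CpGs between genes 5.05% and 59.99%. Hox CpGs had a median of 27 CpGs in the surrounding 502 bases against 22 for all CpGs, but promoter CpGs, which made up 70.1% of the Hox CpGs and 53.6% of all CpGs, were sparser at Hox genes, with 29 against 38.

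**Figure D1:**
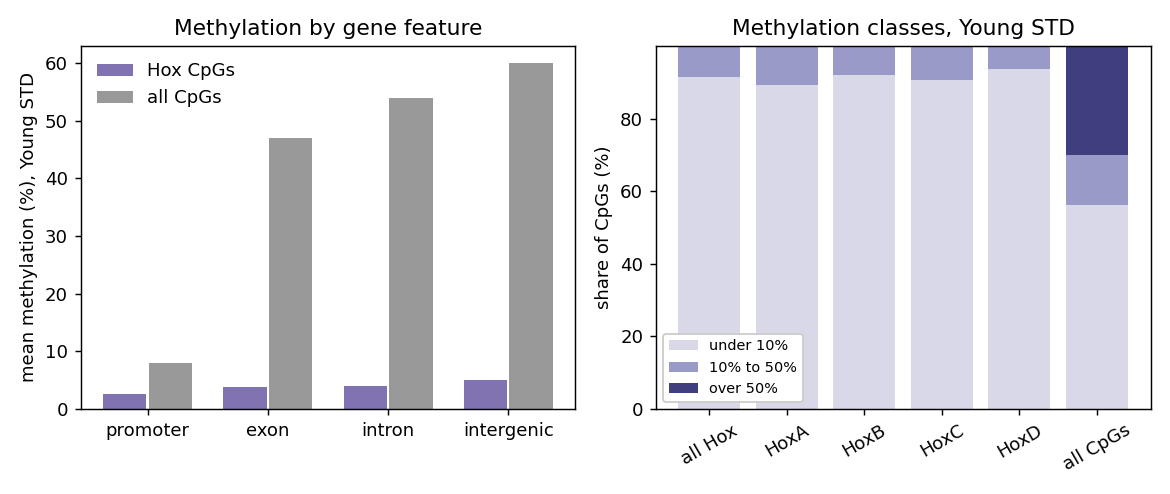
Mean methylation in Young STD mice by gene feature (left, bars in percent, Hox CpGs beside all CpGs of the table) and the share of CpGs under 10%, from 10% to 50% and over 50% (right, stacked bars in percent, for all Hox CpGs, each cluster and all CpGs). Hox exons and introns stay under 4% where the table as a whole is at 46.9% and 53.9%, and 89.1% to 93.7% of the CpGs of each cluster are under 10%.

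The 4 clusters resembled each other in this respect. The share of CpGs under 10% was 89.1% in HoxA, 91.9% in HoxB, 90.7% in HoxC and 93.7% in HoxD, and the Young STD means were 3.67%, 2.83%, 2.98% and 2.50%. Among paralogue groups, which take the genes of the same number from all clusters together, Young STD means ran from 2.01% in group 11 to 4.63% in group 7, with no order from group 1 (2.83%) to group 13 (2.57%). Group 5 was at 4.29% and group 9 at 2.78%.

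Hox promoter sequences, covered by the table or not, held more CpGs at the median than promoters in general. RefSeq (mm10) promoter sequences of 300 bases matched 22 of the 39 Hox genes with 24 promoters. The dinucleotide CG, which reads the same on both strands, occurred a median of 14.5 times in them against 7 times in all 32851 promoters of that table, and 70.8% of the Hox promoters against 43.5% of all promoters held it at least 10 times. Hoxd11, which patterns the sacral spine and the forelimb, and Hoxd4, which acts in the hindbrain and neck, are shown because they had the lowest and the highest Young STD mean among the promoters with 3 or more CpGs measured and values in all 5 young mice. In each, the 250 bases before the start are given on the plus strand of mm10, and capitals mark the CpGs that had values in the table.
Hoxd11 promoter, chr2:74682073-74682322: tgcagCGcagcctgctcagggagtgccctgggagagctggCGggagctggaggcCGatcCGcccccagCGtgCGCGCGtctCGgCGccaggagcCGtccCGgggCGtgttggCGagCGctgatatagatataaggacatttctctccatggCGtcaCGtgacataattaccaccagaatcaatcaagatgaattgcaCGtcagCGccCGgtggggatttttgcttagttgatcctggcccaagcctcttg
Hoxd4 promoter, chr2:74721728-74721977: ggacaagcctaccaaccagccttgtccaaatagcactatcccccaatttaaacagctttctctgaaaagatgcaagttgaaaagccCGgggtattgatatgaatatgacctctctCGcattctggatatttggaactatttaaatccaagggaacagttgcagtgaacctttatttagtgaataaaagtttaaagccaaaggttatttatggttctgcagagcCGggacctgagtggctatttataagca
All 20 CpGs of the Hoxd11 stretch were measured, and their mean was 0.334% ± 0.664 (SD, n = 5) in Young STD, 1.08% in Aged STD and 0.725% in Aged ENR. The Hoxd4 stretch held only 3 CpGs, and their mean was 15.97% ± 6.99 in Young STD (5% to 24.3%), 9.17% in Aged STD and 13.8% in Aged ENR. Hoxa5, which patterns the neck and lung, held 28 CpGs before its start, of which 9 were measured, with means of 2.87% ± 2.71 in Young STD, 5.37% in Aged STD and 7.28% in Aged ENR.

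The few methylated CpGs mostly lay where CpGs were sparser. Over all mice, 13 Hox CpGs had a group-averaged level over 25%, which is 0.527% of Hox CpGs against 35.0% of all CpGs. They are counted by strand, and both strands of 1 HoxA CpG are among them. HoxA held 8 of them, HoxB 2, HoxC 3 and HoxD 0, and their median density was 11 CpGs in 502 bases. Only 3 lay within 1000 bases of a start, and 1 of them, at chr6:52204889 and -302 bases from the start of Hoxa5, had 30 CpGs in the surrounding 502 bases. The most methylated on average over the 3 groups was at chr6:52199962 on the plus strand, in an exon of Hoxa3, a gene needed for the thymus, the parathyroid and the lower cranial nerves. The 30 bases around it are shown because this CpG had the highest level averaged over the groups.
Hoxa3 exon CpG, chr6:52199948-52199977: agagacaggcaaggCGgaagaaaagaaagc
Its means were 56.1% in Young STD, 54.3% in Aged STD and 57.0% in Aged ENR. The cytosine on the opposite strand of the same CpG had 42.2%, 20.2% and 15.03%, over the 15 mice measured there, so the strands did not give the same value. The CpGs at chr6:52222885, 52222903 and 52222923 on the minus strand lay between Hoxa7 and Hoxa9. They had Young STD means of 31.7%, 56.1% and 59.3% and Aged ENR means of 43.5%, 20.6% and 30.8%. In HoxB, the CpG at chr11:96368145, in the untranslated region of Hoxb1, a gene for the identity of rhombomere 4, had 49.0%, 34.5% and 37.6% in the 3 groups. In HoxC, the CpG at chr15:102966240, which lies at -556 bases from the start of Hoxc10, a gene of the lumbar spinal cord and hindlimb, had 34.7% in Young STD, 15.3% in Aged STD and 29.6% in Aged ENR.

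For single genes, a gene and its 2000 bases on either side were averaged over 9 to 273 CpGs (median 62). Genes of a cluster overlap: 671 Hox CpGs belong to more than 1 gene, Hoxd4 lies within Hoxd3, Hoxa4 to Hoxa6 within the long transcript of Hoxa3, and Hoxc6 to Hoxc9 within that of Hoxc5. Hoxa4, Hoxa5, Hoxa6, Hoxc6, Hoxc8, Hoxc9 and Hoxd4 had 0 CpGs of their own. To keep libraries with different CpGs comparable, each CpG was first centred on its mean over the mice compared, so that a gene or window value is the regional mean plus the average deviation of the mouse and can fall slightly below 0. The median Hox gene had 2.93% in Young STD against 14.97% over all genes. The 4 lowest genes were Hoxb4 (0.955% ± 0.61), a gene of the hindbrain and of blood stem cells, Hoxd1 (1.49% ± 1.68), a gene of pain-sensing neurons, Hoxd13 (1.62% ± 0.82), a gene of the digits, and Hoxb8 (1.68% ± 0.48), a gene of the spinal cord and of blood progenitors. The 4 highest were Hoxa5 (8.20% ± 1.49), Hoxb1 (6.29% ± 4.51), Hoxc10 (6.02% ± 2.02) and Hoxa2 (5.87% ± 1.51), a gene of the second pharyngeal arch. The SD is over 5 Young STD mice. Hoxb1, with 21 CpGs, ranged so widely between mice that its place in this order is uncertain, while Hoxa5 and Hoxb4 were separated by more than their spread.

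Mean methylation over the 380 Hox CpGs measured in all mice was similar in the 3 groups. It was 4.04% ± 0.34 (SD, n = 5, 3.78% to 4.62%) in Young STD, 4.16% ± 1.11 (n = 7, 3.07% to 6.13%) in Aged STD and 4.73% ± 0.84 (n = 7, 3.52% to 5.95%) in Aged ENR. The ranges overlapped, and the aged groups were more variable than the young one. Over the 69034 CpGs of the table measured in all mice the means were 20.5% ± 1.07, 18.5% ± 1.79 and 19.3% ± 1.07, and Hox CpGs were below the mean of all CpGs in 19 of 19 mice. No test was run on these averages over the members. The Hox difference was 0.12 points for Aged STD against Young STD and turned to -0.209 without Aged STD replicate 5, the mouse with the highest index, and to -0.0366 without Aged STD replicate 7. It was 0.759 points without the mice of low index, 0.315 points without all 6 mice and 0.832 points with the composition index as a term. It was -0.385 points within library series 27 and 0.772 points within library series 37, the 2 library numbers that the sample labels carry. For Aged ENR against Aged STD the difference was 0.57 points, with 1.02 points in series 27, -0.0275 points in series 37 and -0.274 points without the 4 mice of low index. For Aged ENR against Young STD it was 0.69 points, with 0.630 and 0.744 points within the series and 0.309 points without all 6 mice.

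HoxD was the cluster in which most aged mice were above all young ones. In Young STD mice HoxD was at 3.46%, 3.22%, 3.86%, 2.69% and 2.76%. In Aged STD mice the lowest, median and highest HoxD means were 2.83%, 4.41% and 6.91%, and in Aged ENR mice 3.82%, 4.82% and 7.57%. In each aged group 5 of 7 mice were above all Young STD mice. The group means were 3.20% ± 0.49, 4.59% ± 1.32 and 5.09% ± 1.28, over 98 CpGs. The difference of 1.39 points for Aged STD against Young STD came to 0.356 points in library series 27 and 2.81 points in series 37, and to 1.64 points without the 6 mice of high or low index. The difference of 1.89 points for Aged ENR against Young STD came to 1.83 and 2.02 points in the series and to 1.64 points without these mice. Between the aged groups HoxD differed by 0.50 points, which became -0.799 points in series 37 and -0.681 points without the mice of low index, and 0.0875 points without Aged ENR replicate 4 alone.

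Over all 687 HoxD CpGs, each centred on its mean over all mice, the levels were 2.52%, 3.25% and 3.55%, so the differences from Young STD came to 0.728 and 1.03 points. There 6 of 7 Aged STD mice and all 7 Aged ENR mice were above the Young STD range of 2.40% to 2.72%.

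In HoxA the 5 young mice had 4.98%, 4.85%, 4.86%, 5.81% and 5.10% over the 104 CpGs measured in all mice. Aged STD mice had 4.43% ± 0.61, with 5 of 7 below all young mice, whereas Aged ENR mice had 5.93% ± 1.78, with 4 of 7 above all young mice. Aged STD was lower than Young STD by 0.62 and 0.82 points within library series 27 and 37 (differences of -0.618 and -0.823). The highest Aged ENR value, 9.39%, was that of replicate 6, a mouse of high index. For Aged ENR against Young STD the HoxA difference was 0.81 points, with 0.310 and 1.44 points in the series, 0.234 points without the 2 mice of high index and 0.0432 points without all 6 mice. Between the aged groups it was 1.50 points, with 0.929 and 2.26 points in the series and 0.319 points without the 6 mice. Aged STD was -0.276 points from Young STD in HoxA without the 6 mice. Over all 700 HoxA CpGs, centred in the same way, this sign turned: the levels were 3.68% in Young STD, 3.82% in Aged STD and 4.22% in Aged ENR, with differences from Young STD of 0.138 and 0.545 points and overlapping ranges. HoxB was at 3.56% ± 0.50, 3.49% ± 1.44 and 3.71% ± 0.90, and HoxC at 4.20% ± 0.85, 4.07% ± 2.06 and 3.95% ± 0.68. In neither did the groups separate, and the sign of their differences moved with the libraries. The HoxB difference for Aged STD against Young STD was -0.0727 points with all mice, -0.583 points without the mice of high index and 0.541 points without those of low index. The HoxC difference was -0.139, -0.697 and 0.914 points in the same order. Over all CpGs of the cluster, centred, it was 0.409 points in HoxB (565 CpGs) and 0.385 points in HoxC (514 CpGs), again with overlapping ranges. HoxA was the most methylated cluster in 13 of 19 mice, namely 5 of 5 Young STD, 3 of 7 Aged STD and 5 of 7 Aged ENR mice, HoxD in 4, HoxC in 2 and HoxB in 0.

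**Figure D2:**
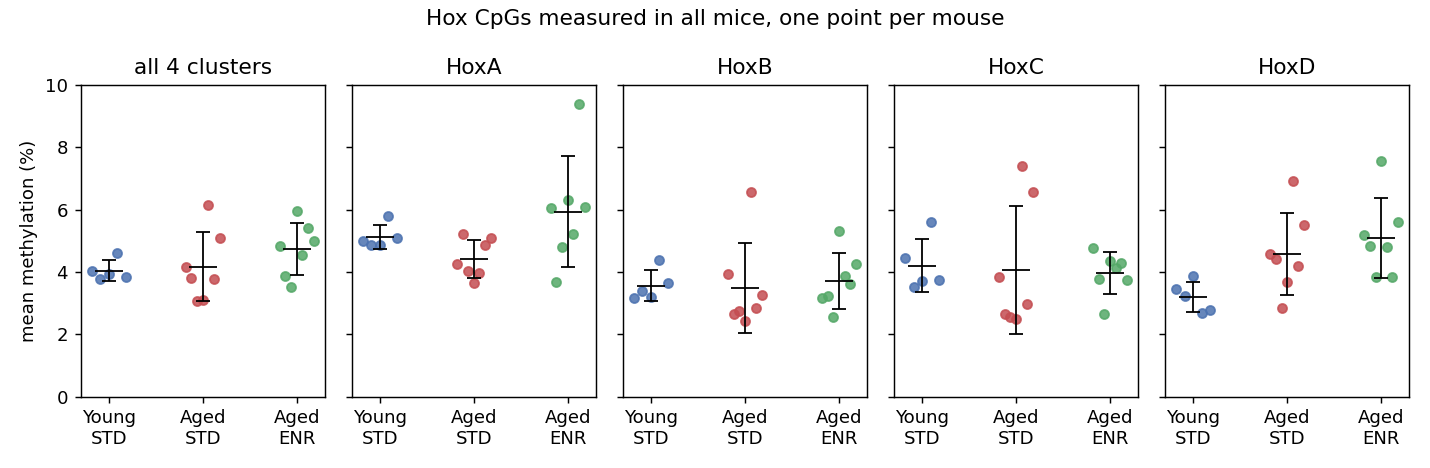
Mean methylation in percent of the Hox CpGs measured in all 19 mice, for all 4 clusters and for each cluster, with 1 point per mouse and the group mean with SD as a black cross and bars. HoxD points of the aged groups reach from 2.83% to 7.57%, above the Young STD range of 2.69% to 3.86% in 10 of 14 mice, while HoxB and HoxC groups overlap.

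By gene feature, the least overlap was in the Hox CpGs classed as promoter. This class lies within 1000 bases of any annotated start, not only that of a Hox gene. A window in the noncoding gene Haglr, at -12672 bases from the nearest Hox start, is among it. With each CpG centred on its mean over all mice, so that all measured CpGs could be used, the methylation of this class was 2.50% to 2.96% in Young STD, 2.58% to 3.59% in Aged STD and 3.04% to 3.81% in Aged ENR. All 7 Aged ENR mice and 6 of 7 Aged STD mice were above all 5 Young STD mice, and without the 6 mice of high or low index so were 5 of 5 and 3 of 3. Without centring, the group means of this class were 2.57%, 3.17% and 3.46%, beside 7.95%, 7.43% and 7.70% for all promoter CpGs of the table. Values per mouse were not compared for all promoter CpGs, so the share of such separations among them is not known. Hox exons were at 3.75% ± 0.96, 4.06% ± 1.01 and 4.30% ± 0.49 in the 3 groups, and introns at 3.82% ± 0.61, 3.89% ± 0.94 and 3.90% ± 0.69, with overlapping ranges. CpGs between genes were at 5.13% ± 1.33, 4.68% ± 1.22 and 3.70% ± 1.09, and 6 of 7 Aged ENR mice were below all Young STD mice, or 5 of 5 without the 6 mice.

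Hox CpGs of low methylation were next set beside other CpGs under the same cut, without matching their levels. Among CpGs measured in all mice, 347 Hox CpGs and 45206 other CpGs had a mean under 10%. The Hox CpGs had 2.82% ± 0.21 in Young STD, 3.14% ± 0.90 in Aged STD and 3.51% ± 0.49 in Aged ENR, and the other CpGs had 2.46% ± 0.15, 2.29% ± 0.32 and 2.35% ± 0.23. Hox minus other CpGs was 0.725, 0.401, 0.497, 0.335 and -0.197 points in the 5 young mice. It was 0.117 to 1.76 points in Aged STD (median 0.904) and 0.513 to 2.05 points in Aged ENR (median 0.987), so that 4 of 7 Aged STD and 6 of 7 Aged ENR mice were above all young mice. Without the 6 mice of high or low index it was 2 of 3 Aged STD mice (0.687 to 1.40 points) and 4 of 5 Aged ENR mice (0.513 to 1.44 points). Within library series 27 the low Hox CpGs of Aged STD mice were 0.299 points below those of Young STD (difference -0.299), and within series 37 they were 1.17 points above, so the direction for Aged STD was not the same in the 2 series. For Aged ENR against Young STD the difference was 0.494 and 0.986 points.

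**Figure D3:**
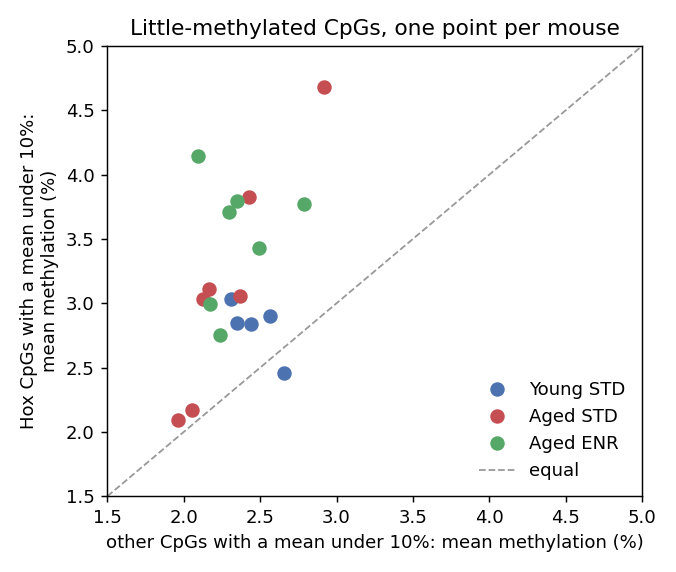
Mean methylation in percent of the 347 Hox CpGs with a mean under 10% (vertical axis) against that of the 45206 other CpGs with a mean under 10% (horizontal axis), 1 point per mouse and a dashed line of equal values. All Aged ENR points lie above the line, between 2.75% and 4.14% for Hox CpGs, and 1 Young STD point lies below it.

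Single Hox CpGs were then tested with limma on the percent scale, fitted over all CpGs of the table. In Aged STD against Young STD, 0 of 1722 Hox CpGs and 0% of all CpGs were called, which required a difference over 25 points together with an adjusted p under 0.05. The smallest adjusted p of a Hox CpG was 0.760. At an unadjusted p under 0.05, 5 Hox CpGs were higher and 31 lower, where 1.09% of all CpGs were higher and 3.33% lower. With the composition index as a term in the fit this split turned to 77 higher and 12 lower, with 0 called. Differences over 25 points occurred at 15 Hox CpGs, 5 higher and 10 lower, against 9.35% of all CpGs. Of the 480 Hox CpGs measured in every mouse compared, 0 had groups that did not overlap, against 0.432% of all such CpGs.

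Between the aged groups, for Aged ENR against Aged STD, 0 of 1821 Hox CpGs and 0% of all CpGs were called, with a smallest adjusted p of 0.769. Here 21 Hox CpGs were higher and 15 lower at an unadjusted p under 0.05, against 1.45% and 0.797% of all CpGs. This split was 17 and 43 with the composition index as a term, 10 and 21 without Aged STD replicate 3 and 31 and 6 without Aged ENR replicate 3, so it had no stable direction. Differences over 25 points were seen at 15 Hox CpGs, 9 higher and 6 lower, against 7.15% of all CpGs, and 0 of 493 had groups without overlap, against 0.0162%. In Aged ENR against Young STD, 0 of 1742 Hox CpGs and 0% of all CpGs were called, with a smallest adjusted p of 0.776. Here 5 Hox CpGs were higher and 24 lower at an unadjusted p under 0.05, against 1.4% and 2.55% of all CpGs, and with the composition index as a term 73 were higher and 25 lower. Differences over 25 points were seen at 25 Hox CpGs, 10 higher and 15 lower, against 7.6%, and 0 of 415 had groups without overlap, against 0.323%. The shares of Hox CpGs with a small p or a large difference were below or near those of all CpGs. In direction, 58.7% of the Hox CpGs tested were higher in Aged STD and 58.1% in Aged ENR than in Young STD, beside 54.2% and 53.1% of all CpGs with a mean under 10%.

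Windows of 1000 bases with at least 3 CpGs gave 168 Hox windows, of which 0 were called in any comparison. In Aged STD against Young STD 0% of all windows were called and the smallest adjusted p of a Hox window was 0.500. At an unadjusted p under 0.05, 7 Hox windows were higher and 3 lower, against 1.69% and 5.32% of all windows. These counts became 1 and 4 with all 3 groups in the fit and 2 and 5 without Young STD replicate 4. Of the windows measured in every mouse compared, 1 of 131 Hox windows had groups without overlap, against 0.674%. For Aged ENR against Aged STD 0% of all windows were called, the smallest adjusted p of a Hox window was 0.942, and 2 Hox windows were higher and 3 lower at an unadjusted p under 0.05, against 2.52% and 1.39%. Here 0 of 131 had groups without overlap, against 0.0401%. For Aged ENR against Young STD 0% of all windows were called, the smallest adjusted p of a Hox window was 0.533, and 10 Hox windows were higher and 4 lower, against 2.07% and 4.08%. The counts became 2 and 5 without Young STD replicate 4 and 3 and 5 without Young STD replicate 5. Groups did not overlap in 2 of 127 Hox windows, against 0.505%.

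More Hox genes were higher than lower in the aged groups, while more of all genes were lower than higher, and no gene passed the test. In Aged STD against Young STD 28 of 39 Hox genes had a difference above 0, against 31.9% of all 15658 genes, and the median difference was 0.42 points for Hox genes and -0.76 points for all genes. Among all genes with a mean under 10%, 44.1% had a difference above 0 and the median was -0.13 points. The number of Hox genes above 0 was 30 of 39 without the 6 mice of high or low index, and 26 in library series 27 (39 genes) and 26 in series 37 (38 genes). At an unadjusted p under 0.05, 6 Hox genes were higher and 1 lower, against 1.07% and 9.92% of all genes. The counts were 2 and 1 with a replicate block, 3 and 1 with a plain mean over the CpGs measured, and 1 and 1 of 31 genes with CpGs measured in every mouse compared. With limma, 0 Hox genes and 0% of all genes were called, and 0 of 38 Hox genes had groups without overlap, against 0.998% of all genes.

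In Aged ENR against Young STD 29 of 39 Hox genes had a difference above 0, against 37.9% of all genes and 45.7% of genes with a mean under 10%, and the median was 0.46 points against -0.46 points for all genes. Without the 6 mice the number was 27. At an unadjusted p under 0.05, 7 Hox genes were higher and 0 lower, against 1.27% and 6.79% of all genes. The 7 came down to 2 with a replicate block, to 3 with a plain mean and to 0 of 30 genes with CpGs measured in every mouse compared. Again 0 Hox genes and 0% of all genes were called, and 0 of 38 had groups without overlap, against 0.748%. In Aged ENR against Aged STD 24 of 39 Hox genes had a difference above 0, against 59.7% of all genes, with medians of 0.18 and 0.30 points, so the Hox genes were near the background. The number was 15 of 39 without the 6 mice. Only 1 Hox gene was higher and 2 lower at an unadjusted p under 0.05, against 3.09% and 1.17%, 0% of all genes were called, and 0 of 38 Hox genes had groups without overlap, against 0.0548%. Neighbouring Hox genes share CpGs and mice, so these counts are not counts of independent genes, and no p was given to them.

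**Figure D4:**
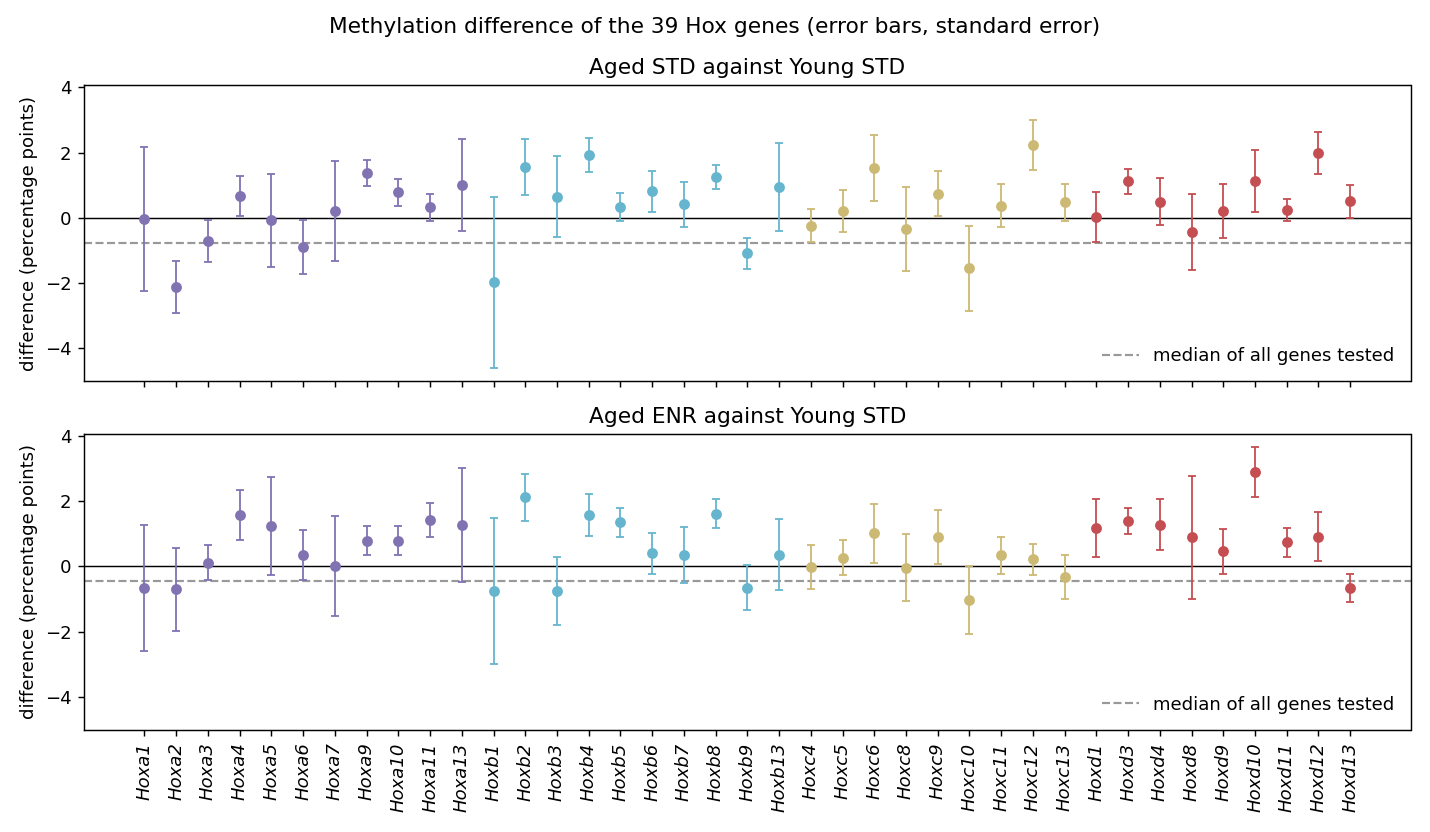
Difference in gene methylation in percentage points (points, with bars for the standard error from the SD and number of mice of each group, not from the limma fit) for the 39 Hox genes in chromosomal cluster order, for Aged STD against Young STD (top) and Aged ENR against Young STD (bottom), with colours for the 4 clusters and a dashed line at the median of all genes tested (-0.76 and -0.46 points). In the upper plot 28 genes and in the lower plot 29 genes lie above 0, and no single gene reached an adjusted p under 0.05.

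By cluster, the genes above 0 in Aged STD against Young STD were 6 of 11 in HoxA, 8 of 10 in HoxB, 6 of 9 in HoxC and 8 of 9 in HoxD, with median differences of 0.21, 0.73, 0.37 and 0.49 points. In Aged ENR against Young STD they were 9 of 11, 7 of 10, 5 of 9 and 8 of 9, with medians of 0.79, 0.38, 0.22 and 0.91 points. Differences of single genes ran from -2.12 to 2.24 points in the former and from -1.04 to 2.90 points in the latter.

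Among anterior genes, Hoxb4 on chr11:96318267-96321638 (41 CpGs) had the smallest p in Aged STD against Young STD. The 5 Young STD mice had 0.645%, 1.99%, 0.574%, 1.06% and 0.860%, and the Aged STD mice had 1.11% at the lowest, 3.03% at the median and 4.96% at the highest. Of the Aged STD mice 6 of 7 were above all young mice. The means were 1.03% ± 0.57 and 2.96% ± 1.19, a difference of 1.94 points ± 0.52 (SE) with an adjusted p of 0.322. The SE of a gene difference is taken here and below from the SD and number of mice of each group, while the adjusted p is from limma. In Aged ENR against Young STD the Hoxb4 difference was 1.59 points with an adjusted p of 0.594, and 4 of 7 mice were above all young ones.

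Hoxa2 on chr6:52162417-52164831 (39 CpGs) had the opposite sign in Aged STD. Young STD mice had 6.67%, 3.21%, 6.57%, 6.92% and 5.85%, and Aged STD mice 2.61% to 5.53% with a median of 3.64%. The groups overlapped through Young STD replicate 2. The difference was -2.12 points ± 0.79 with an adjusted p of 0.346, and in Aged ENR against Young STD it was -0.70 points with an adjusted p of 0.915. Hoxb2, which acts in the facial motor neurons of the hindbrain, had 2.98% ± 0.99 in Young STD and 5.10% ± 1.54 in Aged ENR. Young mice ranged from 1.80% to 4.22% and Aged ENR mice from 2.77% to 7.03%, with 4 of 7 above all young mice. Its difference of 2.11 points ± 0.73 had an adjusted p of 0.532.

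Of the central genes, Hoxb8 on chr11:96281905-96285315 (76 CpGs) had 1.48%, 2.07%, 2.05%, 1.65% and 0.786% in Young STD and 2.02% to 4.81% (median 3.14%) in Aged ENR. Here 6 of 7 Aged ENR mice were above all young mice. The difference was 1.61 points ± 0.44 with an adjusted p of 0.468, and in Aged STD against Young STD it was 1.24 points ± 0.37 with an adjusted p of 0.369. Hoxa9, known for its part in leukaemia, had a difference of 1.37 points in Aged STD (adjusted p of 0.353) and 0.79 points in Aged ENR (adjusted p of 0.731), both against Young STD.

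Of the posterior genes, Hoxd10 on chr2:74691924-74695105 (43 CpGs), which acts in lumbar motor neurons and the limb, had the smallest p in Aged ENR against Young STD. Young STD mice had 2.85%, 5.08%, 2.35%, 2.03% and 3.73%, and Aged ENR mice had 5.05% at the lowest, 5.49% at the median and 8.83% at the highest. All but 1 Aged ENR mouse were above the highest young mouse, Young STD replicate 2. The means were 3.21% ± 1.23 and 6.11% ± 1.40, a difference of 2.90 points ± 0.76 with an adjusted p of 0.373. Against Aged STD, where the mean was 4.11% ± 1.79, the Hoxd10 difference was 2.01 points with an adjusted p of 0.964.

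Hoxc12 on chr15:102936757-102938609 (61 CpGs) and Hoxd13 on chr2:74668310-74671599 (33 CpGs) differed between the aged groups in the other direction. Hoxc12 had 0.980%, 1.96%, 2.73%, 0.581% and 2.73% in Young STD and 4.04% ± 1.64 in Aged STD (1.82% to 6.50%), a difference of 2.24 points ± 0.76 with an adjusted p of 0.352. Against Aged STD, the Aged ENR mice were lower by 1.76 points (difference -1.76, adjusted p of 0.964), with 0.916% to 2.80% in Aged ENR and 1.80% to 5.45% in Aged STD. The Hoxd13 values were 1.27% to 3.89% in Aged STD (mean 2.10% ± 0.88) and 0% to 1.96% in Aged ENR (mean 0.991% ± 0.59), with 6 of 7 Aged ENR mice below all Aged STD mice. Its difference of -1.11 points ± 0.40 had an adjusted p of 0.964.

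Among the remaining genes with an unadjusted p under 0.05, chosen after their values were seen, Hoxd12 and Hoxd3 lie in HoxD. Hoxd12, a limb and tail gene, had 2.80% to 4.37% in Young STD and 3.94% to 8.14% in Aged STD, with 4 of 7 mice above all young ones and a difference of 1.97 points ± 0.64 (adjusted p of 0.368). In Aged ENR against Young STD the Hoxd12 difference was 0.91 points (adjusted p of 0.808). Hoxd3, an anterior gene of the first neck vertebrae, was higher by 1.12 points in Aged STD (adjusted p of 0.420) and by 1.38 points in Aged ENR (adjusted p of 0.532), with 5 of 7 mice above all young ones in each. Hoxb5 had 3.21% to 4.95% in Young STD and 3.95% to 6.53% in Aged ENR, a difference of 1.35 points (adjusted p of 0.557). Hoxa11 was higher by 1.42 points in Aged ENR, with 4 of 7 mice above all young ones (adjusted p of 0.584).

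Of the 4 genes with the highest methylation in young mice, Hoxa2 is given above, and Hoxa5, Hoxc10 and Hoxb1 had differences below or close to their standard errors. Hoxa5 had 6.03% to 10.05% in Young STD and 2.75% to 13.3% in Aged STD, and the difference of -0.07 points had an SE of 1.43. For Hoxc10 the difference was -1.55 points ± 1.29 in Aged STD and -1.04 points ± 1.04 in Aged ENR, and for Hoxb1 it was -1.97 ± 2.62 and -0.75 ± 2.24 points. All of these groups overlapped, and their adjusted p lay between 0.657 and 0.989. Hoxd1, among the lowest in young mice, had 0.310% to 4.45% in Young STD and 0.913% to 3.89% in Aged ENR, with a difference of 1.17 points ± 0.89 (adjusted p of 0.733).

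Of the 3 windows whose groups did not overlap in a comparison, 2 are described here, both higher in the aged mice, which does not give the direction of all 3. Their sequences are shown because the CpGs lie close enough to be read together. They are given on the plus strand of mm10, with measured CpGs in capitals. The window downstream of Hoxb2 lies in an exon of the antisense gene Hoxb3os, centred 4091 bases after the Hoxb2 start. The window beyond Hoxd3 lies in an exon of the noncoding gene Haglr, and the stretch shown holds 10 of its 19 measured cytosines.
Hoxb2 downstream window, chr11:96354564-96354669: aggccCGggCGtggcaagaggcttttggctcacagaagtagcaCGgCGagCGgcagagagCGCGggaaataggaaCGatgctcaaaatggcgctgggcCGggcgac
Haglr window, chr2:74750149-74750422: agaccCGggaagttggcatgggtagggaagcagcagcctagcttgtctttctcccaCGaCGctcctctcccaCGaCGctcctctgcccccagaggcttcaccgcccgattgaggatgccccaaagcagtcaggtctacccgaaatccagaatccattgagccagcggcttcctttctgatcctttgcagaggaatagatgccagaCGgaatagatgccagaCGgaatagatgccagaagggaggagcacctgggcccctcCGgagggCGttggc
The Hoxb2 stretch holds 11 CpGs in 106 bases and the Haglr stretch 13 CpGs in 274 bases.

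In the Hoxb2 window, with 15 cytosines measured, the 5 Young STD mice had -1.30%, 1.29%, 0%, 1.29% and 0%, and the Aged STD mice had 6.80%, 4.99%, 1.48%, 7.95%, 6.91%, 3.35% and 15.3%. All 7 Aged STD mice were above all young mice. The means were 0.256% ± 1.08 and 6.69% ± 4.43, a difference of 6.43 points with an adjusted p of 0.500. Each of the 15 cytosines had a Young STD mean of 0%. The young values other than 0%, and the young SD, thus come from the centring where cytosines were missing. With centring over all 19 mice, Aged ENR had 4.21% ± 3.87 (0.542% to 10.96%), which overlapped both other groups.

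In the Haglr window, with 19 cytosines, Young STD mice had 0.210%, 1.38%, 1.81%, -1.78% and 1.18%, and Aged ENR mice 1.86% to 5.30% with a median of 3.43%. All 7 Aged ENR mice were above all young mice, the closest pair being 1.81% and 1.86%. The means were 0.561% ± 1.43 and 3.55% ± 1.21, a difference of 2.99 points with an adjusted p of 0.612. This separation depended on the centring: with centring over all 19 mice the highest Young STD mouse was at 2.22% and the lowest Aged ENR mouse at 2.06%. In Aged STD, 2 of 7 mice, at 8.43% and 6.75%, were above all Aged ENR mice, and the lowest was at 0.820%.

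The window at the 3′ end of Hoxc12 (chr15:102938001-102939000, 6 CpGs in the coding sequence, the untranslated region and beyond) had 1.87% ± 2.18 in Young STD and 8.55% ± 5.53 in Aged STD. Young mice ranged from 0% to 5.46% and 5 of 7 Aged STD mice were above all of them. The difference of 6.68 points had an adjusted p of 0.634. Aged ENR mice ranged from -1.65% to 22.2%. Other windows of small p were in Hoxd4 within Hoxd3 (chr2:74727001-74728000, difference 2.68 points, adjusted p of 0.695 in Aged STD against Young STD), in Hoxc13 (chr15:102927001-102928000, -2.16 points) and in Hoxc5 (chr15:102986001-102987000, 4.82 points), both with an adjusted p of 0.942 in Aged ENR against Aged STD, and at the Hoxaas3 exon in Hoxa3 (chr6:52201001-52202000, 3 CpGs, -17.6 points, adjusted p of 0.696 in Aged ENR against Young STD with 4 young mice).

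**Figure D5:**
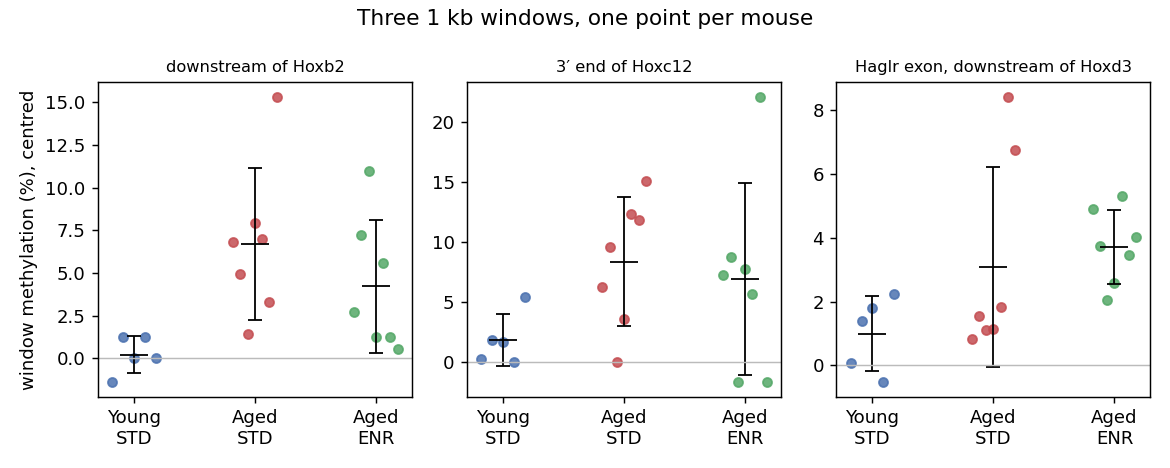
Methylation in percent of 3 windows of 1000 bases, centred on the mean over all 19 mice so that a value can lie below 0, with 1 point per mouse and the group mean with SD as a black cross and bars; each panel has its own vertical scale. The window downstream of Hoxb2 is at 1.24% or less in Young STD and 1.43% or more in Aged STD.

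Single CpGs with the largest differences among those measured in every mouse compared often rested on 1 or 2 mice. The 30 bases around 4 of them are shown, with the measured CpGs in capitals, because at these several mice of a group carried the difference, a choice made after their values were seen.
Hoxa2 coding CpG, chr6:52163282-52163311: ctccagaagggcccCGgagacactgagggc
Hoxd3 intron CpG, chr2:74729444-74729473: tgaaaatatgtttcCGaatgtgcttctata
Hoxa11 intron CpG, chr6:52244533-52244562: aaatgCGctcttagCGccatcattaaacag
Hoxc12 coding CpG, chr15:102938447-102938476: tttggttccagaacCGgagaatgaaaaaga
At the Hoxa2 CpG (chr6:52163296, plus strand) Young STD mice had 42.1%, 17.5%, 43.5%, 0% and 6.67%. Aged STD mice had 0% but for 1 mouse at 2.94%, and Aged ENR mice 0% but for 1 mouse at 27.3%. The differences were -21.5 points (adjusted p of 0.760) and -18.0 points (adjusted p of 0.776) against Young STD, and both aged groups overlapped with Young STD.

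At the CpG in the intron of Hoxd3 downstream of Hoxd4 (chr2:74729459, minus strand) Young STD mice had 9.86%, 0%, 9.43%, 0% and 0%, and Aged ENR mice 49.1%, 23.1%, 25%, 26.1%, 65.8%, 0% and 32.3%. All Aged ENR mice but 1 were above all young mice. The difference of 27.8 points had an adjusted p of 0.776. At the CpG in the intron of Hoxa11, a gene of the forearm and kidney that overlaps the antisense gene Hoxa11os (chr6:52244548, minus strand), Aged STD mice had 0% to 17.8% (median 1.205%) and Aged ENR mice 0% to 52.3% (median 26.9%). Of the Aged ENR mice 4 of 7 were above all Aged STD mice, and the difference of 17.7 points had an adjusted p of 0.769. In the same comparison, chr6:52161129 beside Hoxa2 differed by 20.1 points and chr2:74749362 beyond Hoxd3 by 18.9 points. In the other direction, chr2:74728373 in Hoxd4 differed by -14.6 points. The adjusted p was 0.769 for each.

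At the Hoxc12 coding CpG (chr15:102938461, plus strand) Aged STD mice had 0%, 38.6%, 0%, 0%, 38.5%, 0% and 78.6%, and Young STD mice at most 11.1%. The difference of 19.5 points had an adjusted p of 0.760, and 4 of the 7 Aged STD mice were at 0%. At other CpGs a single mouse stood at 100%, as did Aged STD replicate 4 at 100% in Hoxd3 (chr2:74738981), Young STD replicate 5 at 100% in Hoxb9 (chr11:96274747) and Aged STD replicate 7 at 100% just before the start of Hoxc8 (chr15:102990565), where all Aged ENR mice had 0%. At chr2:74738981, the opposite strand was at 3.44% in Aged STD and 2.94% in Young STD, a difference of 0.498 points against 20.3 points on the minus strand.

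Genes that act with Hox proteins, chosen with earlier results of these data known, were counted for comparison, and 0 genes of any list were called. The TALE cofactors, homeodomain partners that bind DNA with Hox proteins, had 8 of 9 genes measured. In Aged STD against Young STD 2 were higher and 6 lower, in Aged ENR against Aged STD 7 higher and 1 lower, and in Aged ENR against Young STD 6 higher and 2 lower, with medians of -0.58, 0.86 and 0.48 points beside -0.76, 0.30 and -0.46 points for all genes. Regulators of Hox transcription such as Cdx and retinoic acid receptor genes (8 of 8 measured) had 5, 3 and 5 genes higher in the same comparisons.

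Of the 24 genes for subunits of the Polycomb complexes, 7, 7 and 5 were higher in the 3 comparisons, which is 29.2%, 29.2% and 20.8% against 31.9%, 59.7% and 37.9% of all genes, so in Aged STD against Young STD they were near the background. Their medians were -0.55, -0.28 and -0.75 points. Of these, Ezh2, the methyltransferase of Polycomb complex 2, had 11.4% in Young STD and 4.15% in Aged ENR with centring over all mice. The fitted difference, with centring over the mice compared, was -6.89 points with an adjusted p of 0.497. The 45 other homeobox genes of the embryo, such as the Dlx, Nkx and Irx genes, were more like the Hox genes. They had 28, 29 and 30 genes higher of 45, with medians of 0.23, 0.39 and 0.42 points, and a median Young STD level of 3.63% against 2.93% for Hox genes. At an unadjusted p under 0.05, 1, 2 and 3 of them were higher and 1, 0 and 0 lower. Gsx2, a gene of the embryonic ventral forebrain, had 1.09% in Young STD, 4.80% in Aged STD and 2.86% in Aged ENR, with an adjusted p of 0.393 in Aged ENR against Young STD.

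Marker genes of the cell types that the tissue can hold were looked at by their methylation, since the table holds no expression. The summed level per mouse, as a mean over the list, had overlapping groups for oligodendrocytes (27.2% to 33.4% in Young STD, 13.9% to 31.5% in Aged STD, 20.97% to 31.1% in Aged ENR, 7 of 7 genes measured) and for neurons and granule cells (13.7% to 17.1%, 10.5% to 17.1% and 12.4% to 15.99%, 5 of 6 genes). It was 23.6% to 29.999%, 15.6% to 30.2% and 18.7% to 30.4% for astrocytes (5 of 6), 44.8% to 48.7%, 37.5% to 49.7% and 37.9% to 46.4% for microglia (3 of 5), and 41.3% to 47.2%, 35.1% to 45.3% and 38.1% to 45.3% for endothelial cells (4 of 4). In Aged STD against Young STD 4 of 5 neuronal, 4 of 7 oligodendrocyte, 4 of 5 astrocyte, 3 of 3 microglial and 3 of 4 endothelial genes were lower, where 68.1% of all genes were lower. Between the aged groups, 5 of 5 neuronal, 5 of 7 oligodendrocyte, 4 of 5 astrocyte, 3 of 3 microglial and 4 of 4 endothelial genes were higher in Aged ENR, against 59.7% of all genes, and 0 were called in any comparison. Their part in the Hox values was not tested.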

How the data were processed

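RRBS was performed by the authors on dentate gyrus tissue of single mice. The submitters' processing notes name Trim Galore 0.4.0 and cutadapt 1.8.1 (trimming), Bismark 0.16.1 (alignment and calling, mm10) and methylKit 1.5.2, and cytosines with fewer than 10 reads or extreme coverage were left out by the authors. The deposited table holds the percent methylation of each cytosine in 19 mice, without read counts, so depth and counting precision were unknown. The Young ENR mice were not analysed here. In the table, 20 cytosines were outside the CpG context and were left out of the tests.

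Groups came from the sample labels. The members and gene lists were chosen with earlier results of these data known. Differences were tested with limma 3.58.1 in R 4.3.3 (trended variance, two-sided, Benjamini-Hochberg adjustment over the whole table) at CpGs, at windows of 1000 bases with at least 3 CpGs and at genes with 2000 bases on either side and at least 5 CpGs. Calls required an adjusted p under 0.05 and, for CpGs, also a difference over 25 points. The fit was tested on simulated data. Python 3.11.15 with pandas 2.3.3 was used for summaries. Named with values were, in each comparison, the 3 windows and 3 genes of smallest p, and the 4 genes of highest and lowest Young STD methylation. In each comparison the 3 CpGs of largest difference in each direction were also listed, among those measured in every mouse. Only some of these CpGs are described with their differences, a choice made after their values were seen. Other CpGs and genes were chosen after their values were seen. Alternatives were other scales, filters, centring, covariates, library subsets, a replicate block and leaving out each mouse. Each mouse is 1 library. Enriched mice lived together in a shared enclosure and standard mice several to a cage, and the cage and litter of each mouse were not stated, so mice of a group may not be independent and p-values measure the spread between these mice. One named window and the values of 1 listed gene are not reported here.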

Additional observations from a re-analysis of the deposited data

Results flagged for a closer look

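Groups of 5 or 7 mice with a value in every mouse were searched for 1 mouse whose gap to its nearest neighbour was large for the range of the group. This was seen in 27 of 114 groups, a total that also holds groups skipped for a missing value or for equal values. Chance gives this in about 5% of groups, and CpGs at which most mice have 0% give it readily, since 1 mouse above 0% is then enough. Of the 27, 20 were single CpGs and 7 were means, genes or windows. No explanation was tested for any of them.

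Among cluster means, Young STD replicate 4 had 5.81% in HoxA and Aged STD replicate 5, the mouse with the highest composition index, had 6.55% in HoxB. Among genes, with centring over all mice, Young STD replicate 2 had 3.25% in Hoxa2, Aged ENR replicate 3 had 1.92% in Hoxc10 and Aged STD replicate 4 had 3.89% in Hoxd13. Among windows, Aged ENR replicate 7 had 9.27% in the Hoxd4 window and Aged STD replicate 2 had 66.7% in the window at the Hoxaas3 exon within Hoxa3.

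Values of 100% in a single mouse were seen at chr6:52200299 and chr6:52201204 in Hoxa3 (Aged STD replicate 2), at chr2:74738981 in Hoxd3 (Aged STD replicate 4), at chr11:96274747 in Hoxb9 (Young STD replicate 5), at chr15:102990565 before Hoxc8 (Aged STD replicate 7), at chr6:52202784 in Hoxa5 (Aged ENR replicate 3) and at chr6:52244957 in Hoxa11 (Young STD replicate 4). At the last of these Aged STD replicate 4 had 81.0%. At chr6:52200029 in Hoxa3, Aged ENR replicate 6 had 78.6% and Aged STD replicate 7 had 33.3%.

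At chr15:102938461 in Hoxc12, Aged ENR replicate 6 had 47.6% and Young STD replicate 2 had 11.1%. At chr6:52163296 in Hoxa2, Aged ENR replicate 6 had 27.3% and Aged STD replicate 7 had 2.94%. At chr6:52244548 in Hoxa11, Aged STD replicate 4 had 17.8% and Young STD replicate 1 had 10.8%. Aged STD replicate 4 had 13.4% at chr6:52161129 beside Hoxa2, Aged STD replicate 7 had 7.69% at chr2:74749362 beyond Hoxd3, Young STD replicate 3 had 7.41% at chr2:74738981 and Young STD replicate 1 had 3.45% at chr6:52202784.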

How the results depend on the processing

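The count of Hox CpGs, windows and genes called was 0 under all 75 alternatives and all 114 fits that left out 1 mouse. The smallest adjusted p of limma for a Hox window was 0.0502, in Aged ENR against Young STD on a logit scale, at a window that is not described here. Across alternatives the smallest for Hox genes was 0.175 in Aged STD against Young STD and 0.251 in Aged ENR against Young STD. The number of Hox genes above 0 stayed within 1.5 times the values given, at 23 to 32 and 24 to 31 in the comparisons with Young STD, but for Aged ENR against Aged STD it came to 15 without the mice of high or low composition index, a subset chosen after seeing the data; the cause was not tested. Leaving out 1 mouse gave 24 to 31, 20 to 26 and 27 to 32 genes for Aged STD against Young STD, Aged ENR against Aged STD and Aged ENR against Young STD. It gave Hox mean differences of -0.209 to 0.301, 0.365 to 0.897 and 0.485 to 0.890 points, and HoxD differences of 1.00 to 1.68, 0.0875 to 0.889 and 1.47 to 2.10 points. The other alternatives ran from -0.209 to 0.832, -0.274 to 0.785 and 0.309 to 0.700 points for the Hox mean, and for HoxD, where they were chosen after seeing the data, from 0.728 to 2.23, -0.681 to 1.10 and 1.03 to 2.10 points. The low ends 0.728 and 1.03 used all HoxD CpGs, centred, and 2.23 had the composition index as a term. Values within a single library series were not among these alternatives, and some lay outside the ranges. For the Hox mean these were -0.385, 1.02 and 0.744 points in the 3 comparisons. For HoxD they were 0.356 and 2.81 points in Aged STD against Young STD and 1.48 and -0.799 points in Aged ENR against Aged STD. Deviations of same-numbered mice correlated weakly (correlations of -0.0219 to 0.0903, -0.138 to 0.0518 and -0.0321 to 0.0248). This cannot decide whether the numbers mark a pairing, since paired handling need not leave such a correlation. With a replicate block the Hox mean differences were 0.0101, 0.568 and 0.503 points, the HoxD differences 1.28, 0.501 and 2.04 points, the genes above 0 numbered 27, 25 and 27, and the count called was 0. The read depth was unknown, so its limit on single values could not be given.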
